A study of Homo sapiens with 8 samples.

Results

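The apolipoprotein L genes APOL1, APOL2, APOL3, APOL4, APOL5 and APOL6 were followed as a family in AB8 cells, a human line derived from podocytes. All 6 symbols were found among the 58395 Ensembl genes of the deposited count table, and all 8 libraries were used. The cells carried a doxycycline-inducible construct of human CRB2 (a Crumbs-family protein of the cell membrane that helps set apical polarity) with GFP and the S267A change (labelled pIND21_hCrb2+GFP_S267A). Non-induced cells gave 4 libraries, and another 4 came from cells kept with doxycycline for 48 h, all from passages 3 to 8 after the modification. The comparison asks which transcripts differ once the construct is switched on. Every library carried the construct and no library had doxycycline without it, so effects of the drug, of raised CRB2, of GFP and of the S267A change cannot be told apart. Whether the replicates were separate cultures is not stated, so the p-values reflect variation among these libraries, which may be technical.

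APOL proteins share amphipathic helices that can insert into membranes, and in humans their genes lie together on chromosome 22. APOL1 is secreted and travels in plasma on high-density lipoprotein, where it lyses trypanosomes, and in nephrology it is known for its tie to podocyte injury. The other members act inside cells, and several are induced by interferons and by tumour necrosis factor (TNF).

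Total counts were 16829454 to 23081616 reads per library. CRB2 rose from 20.6 ± 8.47 to 3766 ± 1363 CPM (SD, n = 4; CPM are reads scaled to a common library total), a log2 change of 7.51 (SE 0.52, edgeR adjusted p = 0.0016). Both libraries numbered 1 stood apart: their root mean square distance in log2 CPM from the rest of their own groups had a median of 0.513 and 0.523, against 0.175 to 0.203 for the other 6. Of the defining podocyte markers, NPHS1 had 3 reads in all, while SYNPO stood at 39.6 ± 13.4 and WT1 at 3.18 ± 1.68 CPM without induction. Fewer cells making a transcript and less of it per cell cannot be told apart in these bulk samples. Same-numbered libraries deviated together from their group means, those numbered 1 most strongly. Differently numbered libraries among 2 to 4 also did so, with correlations of 0.349 to 0.667, against 0.648 to 0.707 for same-numbered ones among them. Pairing of libraries 2 to 4 is therefore not established. Results are also given from a model that adds the replicate number as a block, where this changes a call.

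Of the 6 members, 4 were transcribed at levels that could be tested, and they spanned a wide range. Per kilobase of exon, APOL2 was the most abundant at 20.1 ± 1.45 CPM per kb (SD, n = 8), followed by APOL1 at 11.6 ± 1.55, APOL6 at 2.98 ± 0.60 and APOL3 at 0.394 ± 0.13. The ranges over the 8 libraries did not overlap between neighbours in this order. APOL2 ran from 18.4 to 23.1 CPM per kb, and APOL1 from 9.88 to 14.7. APOL6 lay between 2.37 and 4.22, and APOL3 between 0.26 and 0.641. With the longest annotated transcript in place of the exon union, APOL1 came to 13.7, APOL2 to 26.1 and APOL3 to 0.641 CPM per kb. The order stayed, but APOL6 has 1 annotated transcript, so its value could not change.

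**Figure D1:**
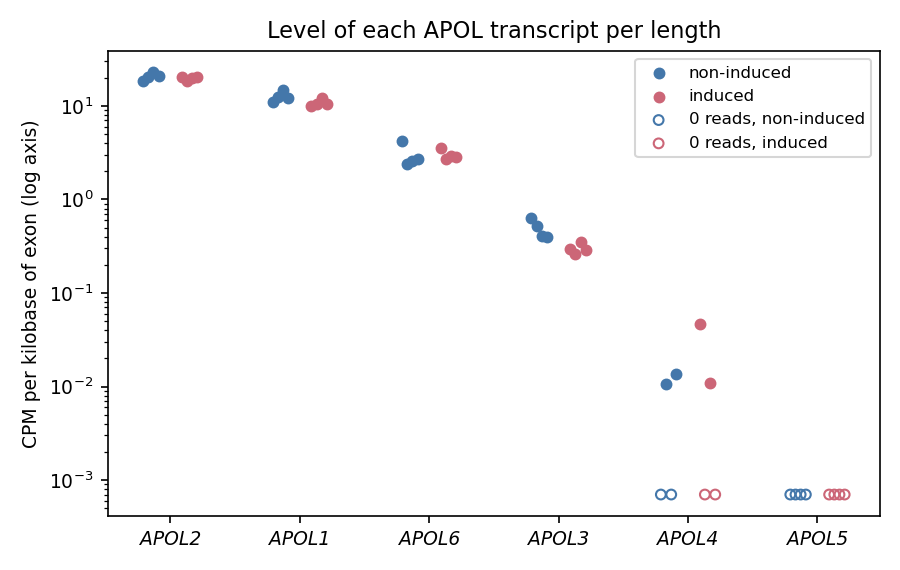
CPM per kilobase of exon (log axis) for the 6 APOL genes, one point per library, blue for non-induced and red for induced cells. Open circles at the bottom mark libraries with 0 reads and have no height of their own. APOL2 lies above APOL1 in every library, and APOL4 and APOL5 lie at or near 0.

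APOL4 (ENSG00000100336, GRCh38 chromosome 22, 36189124 to 36204840, minus strand) had 7 reads over all 162605179 counted reads, found in 4 libraries. That is 0.043 CPM, with a 95% exact Poisson interval of 0.0173 to 0.0887 CPM that covers counting error only. Non-induced libraries 1 to 4 held 0, 1, 0 and 1 of them and the induced ones 4, 0, 1 and 0, and no difference was detectable at this depth. APOL5 (ENSG00000128313, chromosome 22, 35717872 to 35729483, plus strand) had 0 reads, which allows up to 3 reads or 0.0184 CPM over the pooled libraries. Neither gene passed the filter on low counts, so neither was tested.

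APOL1, the trypanolytic and podocyte-linked member (ENSG00000100342, chromosome 22, 36253010 to 36267530, plus strand), was slightly lower in induced cells. Its reads numbered 785, 939, 1108 and 708 in non-induced libraries 1 to 4, or 39.05, 43.8, 51.7 and 42.4 CPM. The induced libraries had 687, 835, 898 and 700 reads, or 34.8, 36.5, 42.8 and 36.8 CPM. The lower value stood in the induced library of all 4 pairs, at 0.891, 0.833, 0.827 and 0.868 of its partner, but the groups overlapped because induced library 3 lay above non-induced libraries 1 and 4. Mean levels were 44.2 ± 5.38 and 37.7 ± 3.48 CPM (SD, n = 4). With the replicate block APOL1 fell by 0.23 on the log2 scale (SE 0.05, edgeR adjusted p = 0.00496). Without the block it differed by -0.23 (SE 0.10), at an edgeR adjusted p of 0.522. The blocked call held with each pair left out (adjusted p 0.00737 to 0.0363) and in DESeq2 with the block (0.0373). All of these checks kept the pairing by replicate number, whose meaning is not labelled, so they cannot test that pairing. Without the block, APOL1 passed in 0 of 16 alternative settings. Leaving out both libraries numbered 1, also without the block, gave a log2 change of -0.26 (edgeR adjusted p = 0.133).

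**Figure D2:**
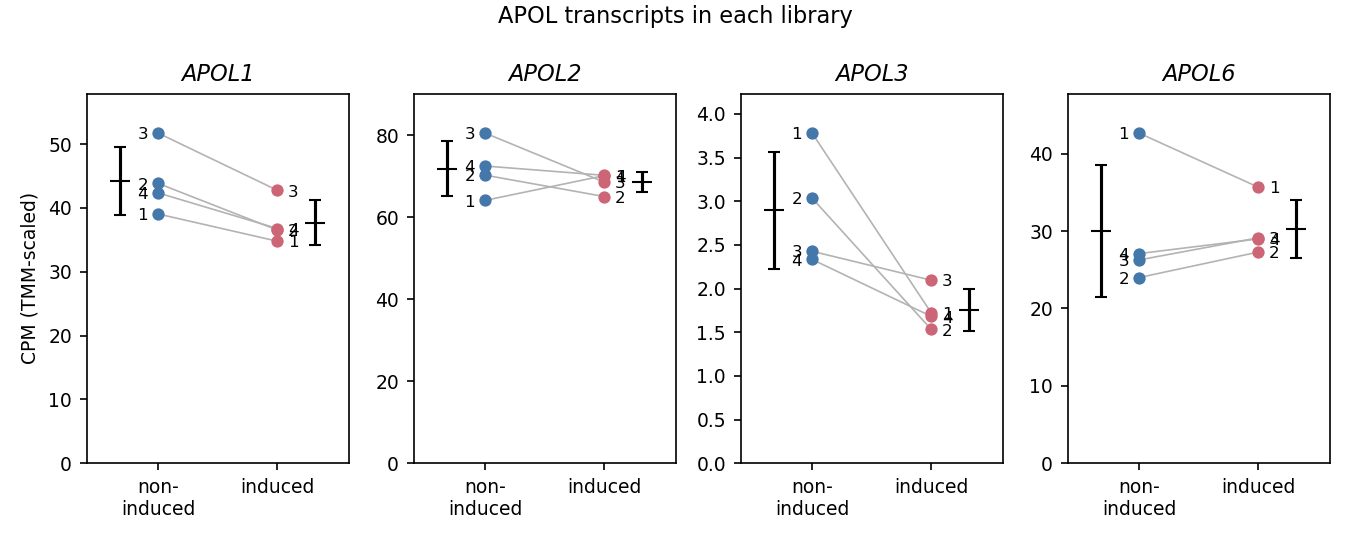
TMM-scaled CPM (linear axis from 0) of the 4 tested APOL genes, with the library number beside each point, grey lines joining libraries of the same number, and bars for the mean ± SD of 4 libraries. All 4 lines slope down for APOL1 and APOL3, and library 1 is the highest of both groups for APOL6.

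APOL3, a TNF-inducible member described in membrane handling at the Golgi and in defence against bacteria in the cytosol (ENSG00000128284, chromosome 22, 36140330 to 36166177, minus strand), showed the largest difference of the 4 tested members. It rested on few reads: non-induced libraries 1 to 4 held 76, 65, 52 and 39, and the induced ones 34, 35, 44 and 32. In CPM these were 3.78, 3.03, 2.43 and 2.33 against 1.72, 1.53, 2.095 and 1.68. The groups did not overlap, and the induced library was lower in all 4 pairs, at 0.455, 0.505, 0.863 and 0.721 of its partner. Over all 15637 tested genes, 7.04% had groups that did not overlap, 3.22% with the induced group lower. Mean levels were 2.89 ± 0.67 and 1.76 ± 0.24 CPM (SD, n = 4).

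With the block APOL3 fell by 0.71 on the log2 scale (SE 0.18, edgeR adjusted p = 0.0189), and without it the difference of -0.72 (SE 0.20) had an edgeR adjusted p of 0.302. The blocked call ended without pair 1 (log2 change -0.57, adjusted p = 0.0996), pair 2 (-0.62, 0.069) or pair 4 (-0.78, 0.0501), and held at 0.0127 without pair 3. DESeq2 with the block gave APOL3 no adjusted p, and without the block gave 0.132. In non-induced libraries the coefficient of variation was 23.1%, against 13.4% from read counting alone. In induced libraries it was 13.6%, below the 16.7% that counting alone gives, so the induced values were not distinguishable at this depth.

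APOL2, an intracellular member and the most abundant one here (ENSG00000128335, chromosome 22, 36226203 to 36239954, minus strand), did not pass in any fit. Non-induced libraries 1 to 4 stood at 64.1, 70.3, 80.5 and 72.5 CPM, and induced libraries 1 to 4 at 70.2, 65.05, 68.6 and 70.2 CPM. The groups overlapped, the induced library was lower in 3 of 4 pairs, and pair 1 went the other way. Its log2 change came to -0.07 (SE 0.07), at an edgeR adjusted p of 0.872, and the block left it at -0.07 (SE 0.05) with an adjusted p of 0.452. Means were 71.8 ± 6.78 and 68.5 ± 2.43 CPM (SD, n = 4).

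APOL6, a cytoplasmic member described with BH3-like and apoptotic activity (ENSG00000221963, chromosome 22, 35648395 to 35668409, plus strand), was highest in library 1 of both groups and did not pass in any fit. Non-induced library 1 stood at 42.7 CPM, against 24, 26.3 and 27.1 CPM in libraries 2, 3 and 4. Induced library 1 stood at 35.7 CPM, against 27.3, 29.1 and 29 CPM. Induced library 1 was thus the highest of its group too, and the only induced library below its partner. Means were 30.0 ± 8.54 and 30.3 ± 3.70 CPM, a log2 difference of 0.01 (SE 0.18) at an edgeR adjusted p of 0.994. The block gave 0.03 (SE 0.07) and 0.796. Without both libraries numbered 1 the log2 change was 0.14 (adjusted p = 0.33), and the other 3 pairs all had the higher value in the induced library.

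Across the family, 0 of 4 tested members passed without the block in edgeR, where 0.0384% of all tested genes did. DESeq2 without the block also called 0 members and 1.86% of genes. By unadjusted edgeR p under 0.05, 2 members were lower, as were 4.26% of all tested genes, and 9.38% passed in either direction. With the block 2 of 4 fell and 0 rose, where 13.8% of all tested genes passed and 6.29% fell. DESeq2 with the block called 1 member, APOL1, lower, where it called 9% of genes and 4.37% lower. The median log2 change of the 4 was -0.15, against 0.00028 over all tested genes, both with the block. Being lower in all 4 pairs was shared by APOL1 and APOL3 with 17% of all tested genes. No gene of the annotation overlapped any of the 6, and no run of 75 bases, the read length, was shared between transcripts of different members. At most 0.742% of such runs in a member, APOL1, occurred in a transcript of any other gene.

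**Figure D3:**
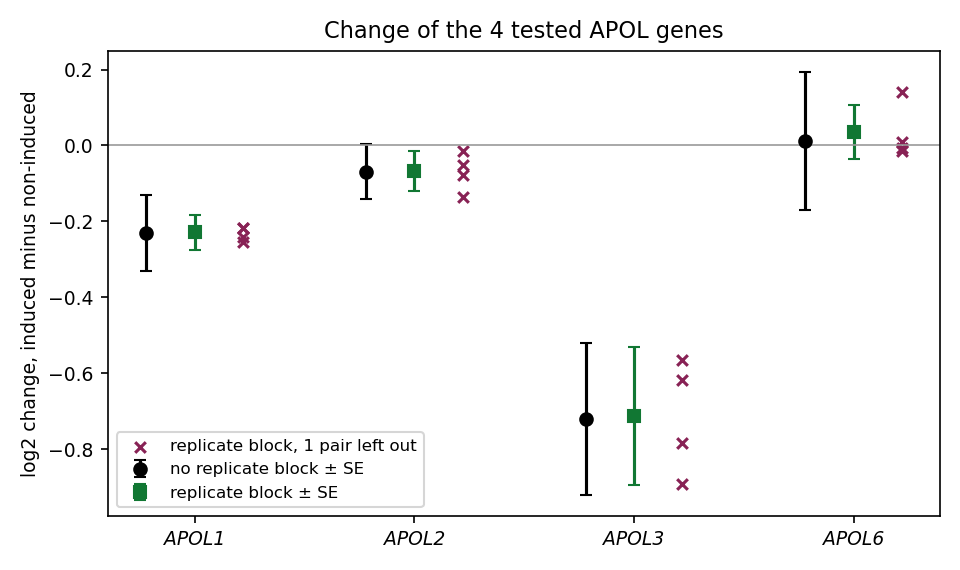
Log2 change (induced minus non-induced) of the 4 tested members without the block (circles) and with it (squares), bars showing ± SE, and crosses for the blocked fit with 1 of the 4 pairs left out. APOL1 stays between -0.25 and -0.22 with a pair left out, and APOL3 between -0.89 and -0.57.

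Per kilobase, APOL2 and then APOL1 made up most of the family in every library. By reads, APOL6 exceeded APOL1 in both libraries numbered 1, with 858 against 785 and 705 against 687. APOL genes together had 139 to 159 CPM of unscaled library totals without induction and 129 to 148 CPM with it. Per length, APOL2 made up 53.6% to 57.9% of the family total without induction and 56.1% to 59.7% with it, and APOL1 32.3% to 36.0% and 29.2% to 34.6%. The number of APOL2 reads for each APOL1 read was 1.642, 1.603, 1.557 and 1.712 over the non-induced libraries, in order of their numbers. Over the induced libraries it was 2.017, 1.781, 1.604 and 1.91. This ratio needs no scaling between libraries. It was higher in the induced library of each pair, and the groups overlapped at non-induced libraries 1 and 4 and induced library 3. APOL6 made up 10.4% and 12.3% of the family in the libraries numbered 1, and 6.36% to 8.49% in the other 6.

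Interferons induce APOL genes through receptors, JAK kinases and the STAT and IRF factors. Of 30 genes of these routes, 28 were tested. With the block 2 rose and 4 fell, and without it 0 passed in edgeR and 0 in DESeq2, with 5 at an unadjusted p under 0.05. With the block this was 7.14% up and 14.3% down, where 7.51% of all tested genes rose and 6.29% fell; 9.38% of all had an unadjusted p under 0.05. The list's median log2 change was -0.05. Among receptors, IFNGR2, a chain of the interferon-gamma receptor, fell by 0.50 (SE 0.07, edgeR adjusted p = 0.00283 with the block), from 62.5 ± 16.6 to 43.5 ± 5.51 CPM. IL10RB, a chain of the type III receptor, fell by 0.85 (adjusted p = 0.0464 with the block), on 118 reads in all. DESeq2 gave IL10RB no adjusted p, with or without the block, and the gene overlaps a read-through gene on its own strand. Overlaps are given for CRB2 and the genes named by rule from the lists, not for genes added later or named for their pattern. Among them CRB2, IFNGR2, IRF1, APOLD1, IL6, IL32, TNFAIP3, CSF1R, LST1, TAGLN, PLCE1, PODXL, KRT8 and PAX8 overlap genes on the opposite strand. Since the strand setting of the counting is unknown, reads of both strands may be mixed there. The partner had more reads than the gene itself for CSF1R (925 against 247), and KRT18, opposite KRT8, had 39677 against 72956.

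Among factors, IRF1, which drives interferon-gamma targets, fell by 0.25 (SE 0.05, edgeR adjusted p = 0.00545 with the block). IRF1 stood at 128, 54.8, 65.45 and 58.5 CPM without induction and at 95.9, 45.6, 60.05 and 52.4 CPM with it, for libraries 1 to 4. It was high in both libraries numbered 1, as APOL6 was; its part in the level of APOL6 was not tested. IRF9 differed by a log2 of 0.04, at an edgeR adjusted p of 0.935 with the block. It had 230 reads in all and overlaps a read-through gene on its strand.

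The suppressor SOCS3, a brake on JAK signalling, fell by 0.97 (SE 0.08, edgeR adjusted p = 3.93e-05 with the block). Among sensors, the RNA helicase IFIH1 rose by 0.41 (adjusted p = 5.32e-04 with the block), and its adaptor MAVS by 0.15 (0.0142). TLR3, the double-stranded RNA receptor that can raise APOL1, had a log2 change of 0.22 (0.28) and was low in both libraries numbered 1. DESeq2 with the block gave MAVS an adjusted p of 0.0535, which ends its call. Of the ligand genes in the list, IFNG had 0 reads, while IFNB1 stood at 10.8 ± 10.1 and 13.7 ± 15.2 CPM and IFNL1 at 1.92 ± 2.32 and 2.75 ± 3.18 CPM (SD, n = 4). Neither IFNB1 nor IFNL1 passed with the block (edgeR adjusted p = 0.215 and 0.0609).

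Of 40 interferon-stimulated genes, 37 were tested, and with the block 2 rose and 4 fell. Without the block 0 passed in edgeR and 0 in DESeq2, and 1 of the 37 had an unadjusted edgeR p under 0.05, as did 9.38% of all tested genes. The median log2 change was -0.04. SAMD9, an antiviral factor, rose by 0.37 and the helicase-like DDX60 by 0.22 (edgeR adjusted p = 0.00135 and 0.0318 with the block). The guanylate-binding protein GBP2 fell by 0.47, the immunoproteasome subunit PSMB10 by 0.39, the peptide-loading protein TAPBP by 0.23 and the class I molecule HLA-E by 0.21 (adjusted p 0.0187 to 0.0472 with the block). DESeq2 with the block ended the calls of GBP2, PSMB10 and DDX60 (adjusted p = 0.214, 0.123 and 0.145). PSMB10 overlaps a gene on its strand, and GBP2 overlaps GBP7, which had 0 reads. These shares, 5.41% up and 10.8% down, stood beside 7.51% up and 6.29% down over all tested genes.

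Of 20 TNF and NF-kB genes, 19 were tested, and all 19 had a log2 change below 0, with a median of -0.66 (-0.66 with the block). With the block 8 fell and 0 rose, without it 0 passed in edgeR and 7 in DESeq2, and 14 had an unadjusted edgeR p under 0.05. Over all tested genes 6.29% fell with the block, 1.86% passed in DESeq2 and 9.38% had such an unadjusted p. The count of 8 became 15 in DESeq2 with the block and 16 in edgeR with the block and no robust estimation. TRAF1, an adaptor of TNF receptors, fell by 0.62 and the NF-kB inhibitor TNFAIP3 by 0.61 (edgeR adjusted p = 6.33e-05 and 7.78e-05 with the block). The cytokine IL6 fell by 1.07, from 293 ± 78.6 to 139 ± 35.2 CPM, and IL32 by 0.39. The subunits NFKB2 and RELB fell by 0.39 and 0.31. The log2 change of APOL3 with the block, -0.71, lay near this list's median, and APOL1's -0.23 lay closer to 0 than it; the part of TNF signalling in either was not tested.

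**Figure D4:**
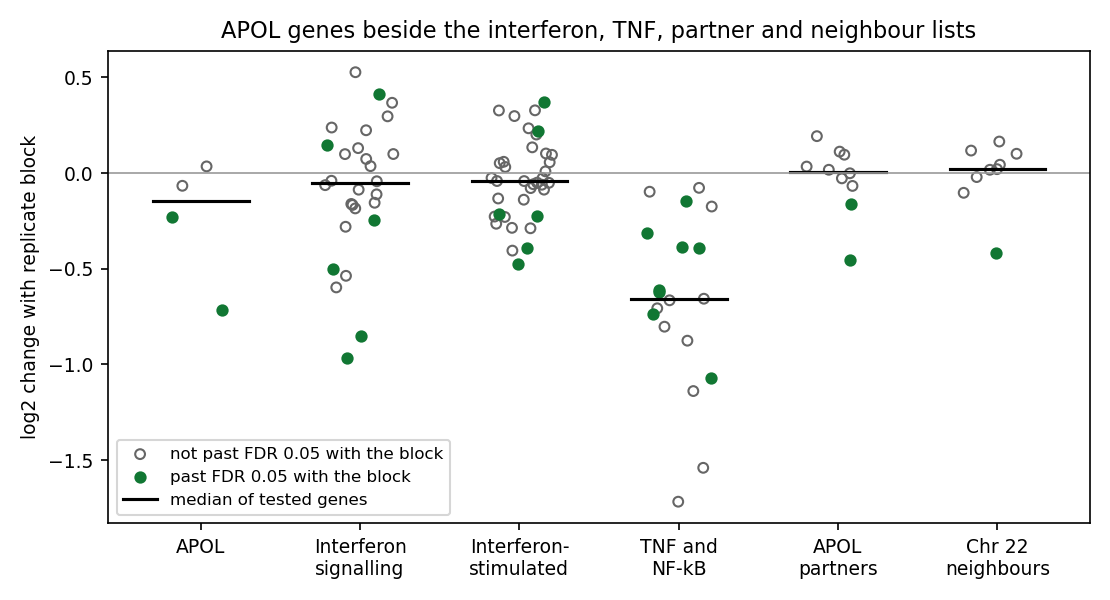
Log2 change with the replicate block for each tested gene of 6 lists, filled where past FDR 0.05, with a bar at the median of each list. The TNF and NF-kB list lies below 0 as a whole, and the interferon lists spread on both sides of it.

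Among 14 genes named with APOL proteins, 10 were tested, with a median log2 change of 0.01. PLAUR, the urokinase receptor, fell by 0.45 (SE 0.05, edgeR adjusted p = 4.52e-05 with the block), from 128 ± 17.8 to 93.9 ± 14.5 CPM. NCS1, a calcium sensor tied to APOL3 at the Golgi, fell by 0.16 (adjusted p = 0.0158 with the block), from 106 ± 5.75 to 94.5 ± 3.18 CPM, but DESeq2 with the block gave 0.0566, which ends the call. These 2 calls are 20% of the list's tested genes, where 13.8% of all tested genes passed with the block and 6.29% fell. The haptoglobin genes HP and HPR, whose products share particles with APOL1 in plasma, had 0 reads. The related gene APOLD1, which overlaps DDX47 on its strand, differed by a log2 of 0.19, at an adjusted p of 0.272 with the block. Without the block 0 passed in edgeR and 0 in DESeq2, with 2 of the 10 at an unadjusted edgeR p under 0.05, as were 9.38% of all tested genes.

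On chromosome 22, APOL3, APOL4, APOL2 and APOL1 follow each other with gaps of 22946, 21362 and 13055 bases, and MYH9, a non-muscle myosin heavy chain, lies 13746 bases beyond APOL1, on the minus strand with its 3′ end toward it. APOL6 and APOL5 lie 49462 bases apart on the far side of RBFOX2. Of 12 neighbouring protein-coding genes 9 were tested, with a median log2 change of 0.02. HMOX1, heme oxygenase, fell by 0.42 with the block (SE 0.08, edgeR adjusted p = 0.00427) and was the single call among them, while without the block edgeR and DESeq2 called 0 and 1 had an unadjusted p under 0.05. That call is 11.1% of the 9, where 13.8% of all tested genes passed with the block and 6.29% fell; 9.38% of all had an unadjusted p under 0.05. MYH9 differed by a log2 of 0.02 (SE 0.04), at an adjusted p of 0.799 with the block. It stood at 1943 and 1998 CPM in the libraries numbered 1 and at 3710 to 4047 CPM in the other 6, the opposite pattern to APOL6.

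Likeness of pattern was measured as the root mean square difference over the 8 libraries between log2 CPM values centred on each gene's own mean, against 12101 other protein-coding genes. The genes nearest to APOL3 were IRAK2, a kinase of interleukin-1 receptor signalling (difference 0.152), the TNF-induced TNFAIP8 (0.16) and the glycosyltransferase B3GNT4 (0.17), where APOL3 itself varied by 0.402. Among the nearest to APOL6, which varied by 0.25, were the purine synthesis enzyme GART (0.0697) and the transporter SLC12A8 (0.0736). For APOL1, with 0.173, these were COQ10B (0.069), the collagen lysyl hydroxylase PLOD2 (0.0697) and ICAM3 (0.0718). For APOL2, with 0.0945, they were the galactokinase GALK1 (0.0419), CDKN2AIPNL (0.0432) and the phospholipase PLCD3 (0.0435). Within the family, APOL1 and APOL2 had the smallest difference (0.124), and the other pairs differed by 0.309 to 0.416. The measure is small for genes that vary little. APOL2 varied by 0.0945, less than its difference from APOL1, so 0.124 does not show a shared pattern. With 8 libraries and so many genes, some close matches are to be had for any gene, and no test was made.

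**Figure D5:**
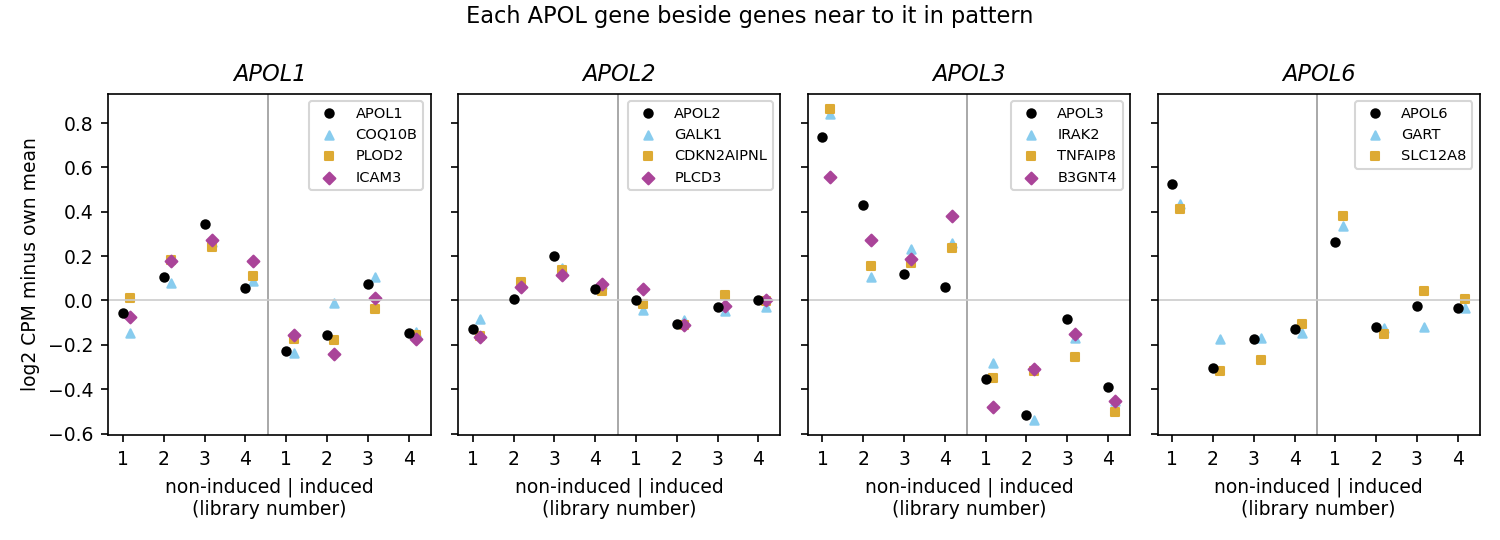
Log2 CPM minus the gene's own mean in each of the 8 libraries for the 4 tested members (black) and genes near to each in pattern, 3 each for APOL1, APOL2 and APOL3 and 2 for APOL6. APOL6 and its matches are high in both libraries numbered 1, and APOL3 and its matches are high in the non-induced libraries.

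Of 16 podocyte markers 10 were tested; with the block PODXL rose by 0.49 and PLCE1 by 0.46 (edgeR adjusted p = 0.035 and 0.00367). DESeq2 with the block ended the call of PODXL (0.234). The list, most of it ACTN4 (930 ± 117 CPM without induction) and KIRREL1 (444 ± 159 CPM), summed to 1591 to 1851 CPM without and 1750 to 2012 CPM with induction. Leukocyte and endothelial markers were low, but the tubular and parietal list was mixed. Without induction PAX8 stood at 457.5 ± 26.4 CPM and KRT8 at 469.5 ± 69.6 CPM (SD, n = 4). Of 10 leukocyte markers 3 were tested, PTPRC had 1 read and TYROBP 0, and the summed level was 4.13 to 4.67 CPM without and 2.81 to 3.59 CPM with induction. CSF1R and LST1, the markers with the smallest p, had log2 changes of -0.65 and -0.58 (edgeR adjusted p = 0.0586 and 0.129 with the block). Of 10 endothelial markers 2 were tested, TIE1 and VWF; KDR and EMCN had 0 reads, and the sum was 3.11 to 5.79 and 2.53 to 5.78 CPM. Tubular and parietal markers summed to 981 to 1185 and 764 to 1028 CPM, carried by PAX8, CLDN1 and KRT8, which fell with the block, while PAX2 rose; LRP2, UMOD and AQP2 had 0 reads. Mesangial markers summed to 192 to 517 and 200 to 502 CPM; PDGFRB rose and TAGLN fell with the block. DESeq2 with the block ended the calls of KRT8, PDGFRB and TAGLN (adjusted p = 0.0571, 0.104 and 0.0995). In edgeR with the block 20% of the 10 tested podocyte markers rose and 0% fell. Of 5 tested tubular and parietal markers 20% rose and 60% fell, and of 5 tested mesangial markers 20% rose and 20% fell. Over all tested genes these shares were 7.51% and 6.29%. The part of these markers in the APOL differences was not tested.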

How the data were processed

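The authors deposited raw read counts per Ensembl gene from total RNA (single reads of 75 bases, directional libraries per the labels' protocols), and these were used for all tests. Their other table, a deposited normalized signal in which each library's counts are divided by 1 factor, served only to check this. Per the submitters' processing notes the tools were bcl2fastq, Trimmomatic 0.38, HISAT2 2.1.0, HTSeq 0.11.1 and DESeq2 1.24.0, with builds hg38 and GRCh38. The sources used here name neither the strand setting nor the annotation release. Gene names, coordinates and exon lengths came from GENCODE 29 (58275 of 58395 genes matched) and a current name table (57754).

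Genes were kept by filterByExpr (minimum count 10), scaled by TMM and compared by edgeR 4.0.16's quasi-likelihood test with robust estimation in R 4.3.3 (two-sided, Benjamini-Hochberg FDR 0.05 over all 15637 tested genes). TMM-scaled totals give CPM, and a prior count of 2 was added for log2 CPM. A count of 0 in 1 library allows up to 3 reads, 0.13 to 0.178 CPM. The script was tested on simulated counts that held no differences between replicate numbers, so that test could not judge the choice of block. Same-numbered libraries correlated at 0.911, 0.704, 0.707 and 0.648 in their deviations from group means over 11502 genes, differently numbered ones at -0.775 to 0.667. All negative values involved a library numbered 1, and differently numbered libraries among 2 to 4 correlated at 0.349 to 0.667. With libraries numbered 1 far from the rest, centring on group means raises the correlations among the others. These values therefore cannot show that libraries 2 to 4 were paired. The pairing rests on these correlations and on the shared numbers, whose meaning is not labelled.

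Members and lists were chosen with earlier results of these data known. Named besides the members and CRB2 were, from each list, up to 6 called genes with the smallest blocked p (2 where none was called), IRF1, IRF9, TLR3, MYH9 and APOLD1, and 3 genes nearest in pattern to each member; some genes these rules name are not reported here. NPHS1, SYNPO, WT1, ACTN4, KIRREL1, IFNG, IFNB1, IFNL1, HP, HPR and markers with few or 0 reads were added once values were known. As alternatives, DESeq2 1.42.0 was run, with 3 other scalings, 2 other filters, no robust estimation, the replicate block and leaving out libraries or pairs.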

Additional observations from a re-analysis of the deposited data

Results flagged for a closer look

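Within each group of 4, a library was singled out when its gap to the nearest other library exceeded 0.829 of the group's range; this marked 13 of 86 groups examined, and chance marks about 1 in 20. All 13 were libraries numbered 1, so they are not independent of each other. APOL6 was the marked member, at 42.7 CPM in non-induced library 1 against 24 to 27.1 CPM in the other 3. Also high in non-induced library 1 were IRF1 (128 CPM against 54.8 to 65.45), IFNGR2 (87.35 against 52.5 to 56.05), APOLD1 (8.755 against 4.95 to 5.44), TAPBP (238.5 against 172 to 183) and TRAF1 (98.0 against 16.4 to 18.9). TRAF1 was also high in induced library 1 (57.15 CPM against 10.3 to 13.1). Low in non-induced library 1 were GBP2 (1.045 CPM against 5.26 to 5.32), KRT8 (365 against 501 to 508) and MYH9 (1943 against 3765 to 3850). In induced library 1, MYH9 stood at 1998 CPM (3710 to 4047 in the others), TLR3 at 2.33 (5.48 to 5.99) and CRB2 at 1734 (4252 to 4599).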

How the results depend on the processing

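Without the block, APOL1, APOL2, APOL3 and APOL6 stayed short of the threshold in each alternative that tested them; with 1 library left out their log2 changes were -0.30 to -0.15, -0.12 to -0.01, -0.82 to -0.57 and -0.09 to 0.23. APOL6 was reversed without non-induced library 2 (-0.087), 3 (-0.05) or 4 (-0.04) or induced library 1 (-0.08). Genes past the threshold numbered 6, 37 with no filter, 240 in DESeq2 and 3 to 16 with 1 library left out (16 without induced library 1, 3 without non-induced library 2 or 4 or induced library 2, 3 or 4). With the replicate block, APOL1 (-0.23), APOL3 (-0.71), 2159 genes, 2 members, 6 interferon signalling, 6 interferon-stimulated, 8 TNF and NF-kB, 2 partner and 1 neighbouring genes passed. DESeq2 called 7 TNF and NF-kB genes. With the block it called APOL1 (-0.23), 1107 genes, 1 member, and 5, 3, 15, 1 and 1 genes of the 5 lists in that order. Leaving out 1 pair under the block gave -0.25 to -0.22 for APOL1, -0.89 to -0.57 for APOL3 and -0.02 to 0.14 for APOL6 (reversed without pair 2, -0.015, and pair 3, -0.0059). It left 1721, 1969, 1254 and 909 genes without pairs 1 to 4, 1 to 2 members, and 4 to 7, 1 to 9, 5 to 13, 1 to 2 and 1 to 2 list genes. The other settings of the blocked fit were chosen after seeing the data. RLE scaling under the replicate block gave -0.23 and -0.72 for APOL1 and APOL3, 2150 genes, 2 members and 6, 6, 8, 2 and 1 list genes. Upper-quartile scaling gave -0.24, -0.72, 2208, 2 and 7, 6, 8, 2 and 1, and library totals -0.22, -0.71, 2199, 2 and 7, 6, 8, 2 and 1. No robust estimation gave -0.23, -0.71, 2067, 2 and 8, 7, 16, 2 and 1. Without both libraries numbered 1 and no block, 543 genes, 2 interferon signalling, 7 TNF and NF-kB genes and 1 neighbour passed, and no member. The cause of these shifts was not tested. APOL3 was not tested at a filter of 10 CPM, and changes of APOL4 and APOL5 could not be tested at this depth.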
